A study of Mus musculus with 2 samples.

Results

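Endothelial cells without *Sele* and *Selp* were 184 droplet barcodes from the vomeronasal organ (VNO) of adult mice, 92 in each of 2 single-cell RNA-sequencing libraries. They were chosen by their own UMI counts, where a UMI (unique molecular identifier) marks 1 captured mRNA molecule. A member had between 200 and 9000 detected genes, at most 5% of its UMIs from mitochondrial genes, at least 1 UMI of *Pecam1* and of *Cdh5*, no UMI of *Sele* or *Selp*, and at most 2 UMIs summed over the complement genes *C1qa*, *C1qb* and *C1qc*. Of 24084 deposited barcodes, 10591 passed the limits on genes and mitochondrial UMIs, and the members were 1.74% of these. A further 383 cells (195 and 188 in libraries 1 and 2) met every limit but carried *Sele* or *Selp*, so that the members made up 32.5% of the 567 cells in both endothelial groups. Both libraries came from whole VNO of C57BL/6J wild-type males at P60, with no treatment and no transgene. The protocol names 5 organs and 10000 cells targeted per sample, and does not say which mice went into which sample. Whether the libraries are 2 captures of the same cell suspension is not stated either. The p-values here therefore measure the spread between the libraries and need not cover the spread between mice.

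Endothelial cells line every vessel, and their genes differ with the place of the vessel in the circulation. Arteries use connexins, Notch ligands and *Sox17*. Capillaries exchange gases, lipids and solutes, and in some tissues hold a barrier of tight junctions and transporters. Venules carry the adhesion molecules that stop leukocytes, and lymphatic vessels, set apart by the transcription factor *Prox1*, drain fluid and guide cells with the chemokine *Ccl21a*. *Sele* and *Selp* encode E-selectin and P-selectin, which tether rolling leukocytes and are found mainly on venules. The VNO, a chemosensory organ in the nasal septum, is known for a large vein beside its lumen, whose changes in volume pump fluid in and out of the organ.

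Members were shallower than the cells they were set apart from. Their median was 4725 UMIs in library 1 and 4825 in library 2, against 8432 and 8253 UMIs in endothelial cells with *Sele* or *Selp*, and the sums compared below held 1157412 and 3779302 UMIs. A cell with few UMIs can miss *Sele* and *Selp* by sampling alone. When all cells were thinned to 2000 UMIs, 114 of 378 *Sele* or *Selp* cells (30.2%) had no UMI of either gene left, and of the 141 cells that then met the rule, 51 (36.2%) had carried one of the genes at full depth. Just outside the rule stood 70 cells with exactly 1 UMI of *Sele* and *Selp* together, 196 with *Pecam1* but no *Cdh5*, and 60 with *Cdh5* but no *Pecam1*. Just inside it stood 30 members with 1 UMI of *Pecam1* and 1 of *Cdh5* and 20 members with 1 or 2 UMIs of the complement genes. The libraries shared 33 barcode sequences, none of which was a member, and Scrublet called 5 members doublets.

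The endothelial label held for most members, though not for all, on genes that the rule did not use. At least 1 UMI of *Cldn5*, a tight junction protein, was present in 83.7% of members (exact 95% interval 77.5 to 88.7), of the VEGF receptor gene *Kdr* in 73.9% (66.9 to 80.1), and of *Sox17* in 60.3% (52.9 to 67.4). In 944 mature vomeronasal neurons, which should lack these genes and had a median of 15628 UMIs, the shares were 3.81%, 0.318% and 0.318%. At an equal 2000 UMIs the shares in members were 70.9%, 43.4% and 39.4%. The intervals cover counting error only. Some deep members lacked these genes. A member with 14239 UMIs had 0 UMIs of *Cldn5*, *Kdr*, *Sox17*, *Tie1*, *Egfl7* and *Esam*, and 4 of the epithelial gene *Epcam*. Another, with 11597 UMIs, had 1 UMI of *Tie1*, none of the other endothelial genes just named, and 8 of *Epcam*. The gene with the highest level in members relative to all other kept cells outside both endothelial groups, among 1321 genes with at least 100 CPM in members (CPM, UMIs of a gene per 1000000 UMIs of its group), was *Gja4*, which encodes an endothelial connexin. Its ratio was 209 in library 1 and 286 in library 2. *Ccl21a*, *Sox17*, *Ly6c1* and *Sox18* followed, with ratios over both libraries between 128 and 189, and then the lipoprotein lipase carrier gene *Gpihbp1*, *Adgrl4*, the junction gene *Esam* and the transporter genes *Slco1a4* and *Abcb1a*. These ratios describe cells picked for endothelial genes and were not tested.

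Members were not uniform. With at least 2 of the arterial genes *Gja4*, *Gja5*, *Bmx*, *Sema3g* and *Efnb2* as an arterial gate, and at least 2 of *Prox1*, *Lyve1*, *Mmrn1* and *Ccl21a* as a lymphatic gate that took precedence, 37 members were arterial-gated, 18 were lymphatic-gated and 129 were neither. Arterial-gated cells came evenly from the libraries (19 and 18), and lymphatic-gated cells did not (4 and 14). In the endothelial cells with *Sele* or *Selp*, although deeper, 29 of 383 (7.57%) were arterial-gated against 20.1% of members, and after thinning to 2000 UMIs the shares were 0.794% and 9.14%. The lymphatic gate took 9.78% of members and 8.36% of the *Sele* or *Selp* cells, and after thinning 9.14% and 2.12%. All 4 lymphatic gate genes were present in 15 members and in 5 of the *Sele* or *Selp* cells. With 2 libraries against 2, an exact permutation test cannot go below p = 0.333 (two-sided), so the shares are given as a description.

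**Figure D1:**
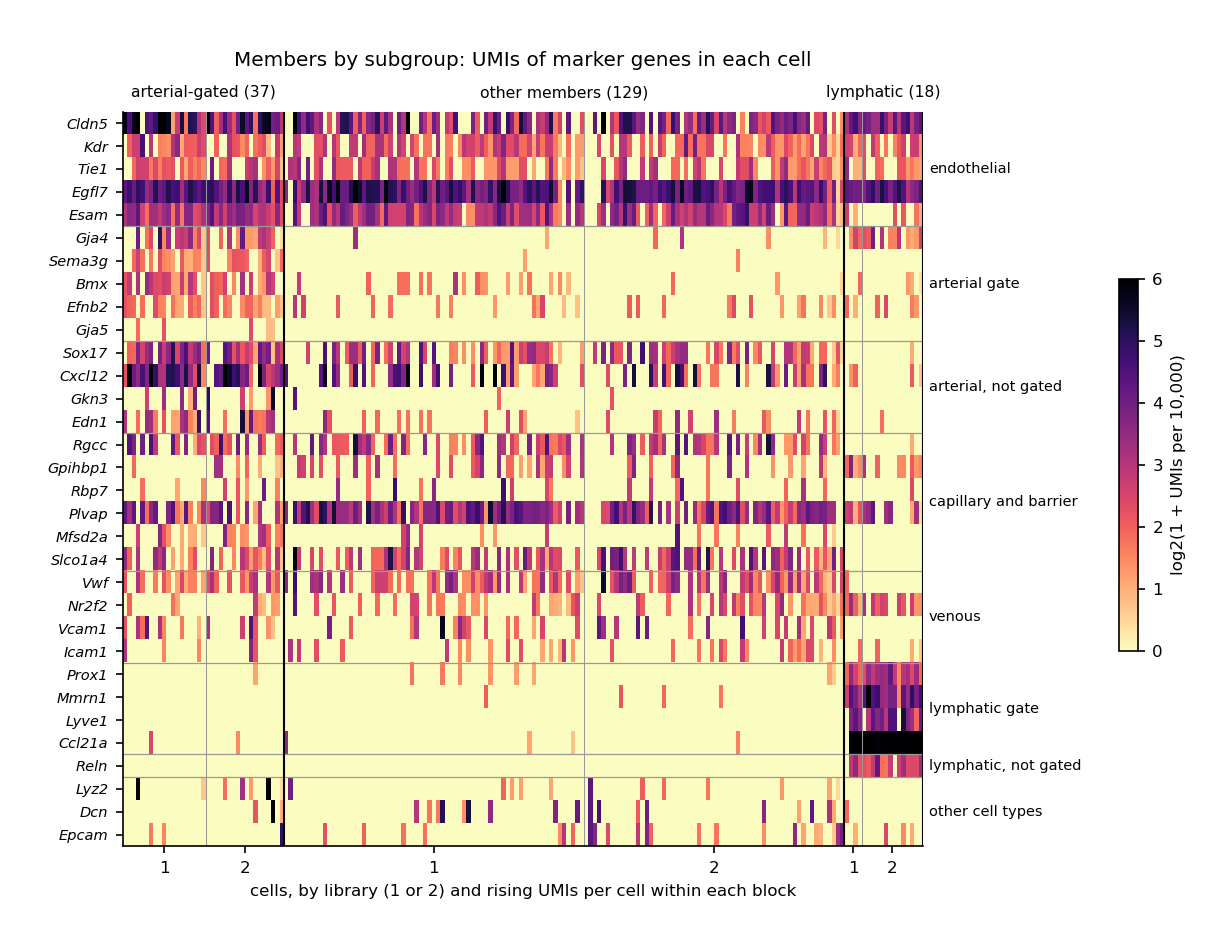
Each column is 1 of the 184 members, in blocks of arterial-gated, other and lymphatic-gated cells and, within a block, by library and rising UMIs per cell; each row is a gene, and the colour is log2(1 + UMIs per 10,000). All 18 lymphatic-gated cells carry Prox1 and Mmrn1, 17 carry Ccl21a and 16 Reln, and 1 carries Sox17. Prox1, Mmrn1 and Ccl21a are genes of the lymphatic gate, and Reln and Sox17 are not. Lyz2 is seen in 7 arterial-gated and 12 other members and in no lymphatic-gated one.

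Lymphatic-gated members shared lymphatic genes beyond those of the gate. *Ccl21a*, which was in the gate, made up 25595 CPM in library 1 and 25442 CPM in library 2, and stood at 2.86 to 15.4 CPM in the other blocks. *Lyve1*, a hyaluronan receptor of lymphatic endothelium, was seen in 15 of the 18 cells and, being a gate gene as well, was low elsewhere in part by construction. Genes that no gate used behaved likewise: *Reln* stood at 609 and 626 CPM in lymphatic-gated cells and at 0 in both other blocks, and the lymphatic VEGF receptor gene *Flt4* stood at 384 and 492 CPM against 17.2 to 54.0 CPM. In the same 18 cells, genes of blood vessels were low. *Sox17* was at 0 and 8.95 CPM, the von Willebrand factor gene *Vwf* at 32.0 and 0 CPM, the organic anion transporter gene *Slco1a4* at 0 in both libraries, and *Esam* at 96.1 and 107 CPM against 735 to 779 CPM in the other blocks. *Gja4* was high in them as well, at 288 and 331 CPM, and was present in 14 of the 18 cells.

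The 129 ungated members expressed genes of blood capillaries and of the endothelial barrier, and some expressed venous genes. *Vcam1* and *Icam1* were each seen in 32 of the 129 cells, against 278 and 226 of 383 *Sele* or *Selp* cells. *Plvap*, which encodes the diaphragm protein of fenestrae and caveolae, stood at 1234 and 861 CPM, and *Rgcc*, a cell cycle regulator marked in capillaries, at 457 and 395 CPM. *Gpihbp1* stood at 207 and 94.4 CPM. The efflux pump genes *Abcg2* and *Abcb1a* stood at 1011 and 929.7 CPM and at 339 and 340.4 CPM, and *Slco1a4* at 368 and 578 CPM. Thus transcripts of a fenestral diaphragm and of barrier transporters were both present in the ungated members. The efflux pump genes and *Rgcc* were not confined to this block. In arterial-gated cells *Abcg2* stood at 818 and 648 CPM and *Abcb1a* at 625 and 460 CPM. *Rgcc* was seen in 22 of the 37 arterial-gated cells and in 72 of the 129 ungated ones. In *Sele* or *Selp* cells *Abcg2* stood at 742 and 747 CPM and *Abcb1a* at 249 and 277 CPM. Other barrier and capillary genes were sparse: the thyroid hormone transporter gene *Slco1c1* was seen in 2.17% of all members, the capillary carbonic anhydrase gene *Car4* in 3.80%, and the fatty acid translocase gene *Cd36* in 1.63%. The vein and lymphatic transcription factor gene *Nr2f2* stood at 116 and 177 CPM in ungated members, 352 and 242 CPM in lymphatic-gated ones, and 30.9 and 71.2 CPM in arterial-gated ones. The division gene *Mki67* was seen in 1 of the 184 members.

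**Figure D2:**
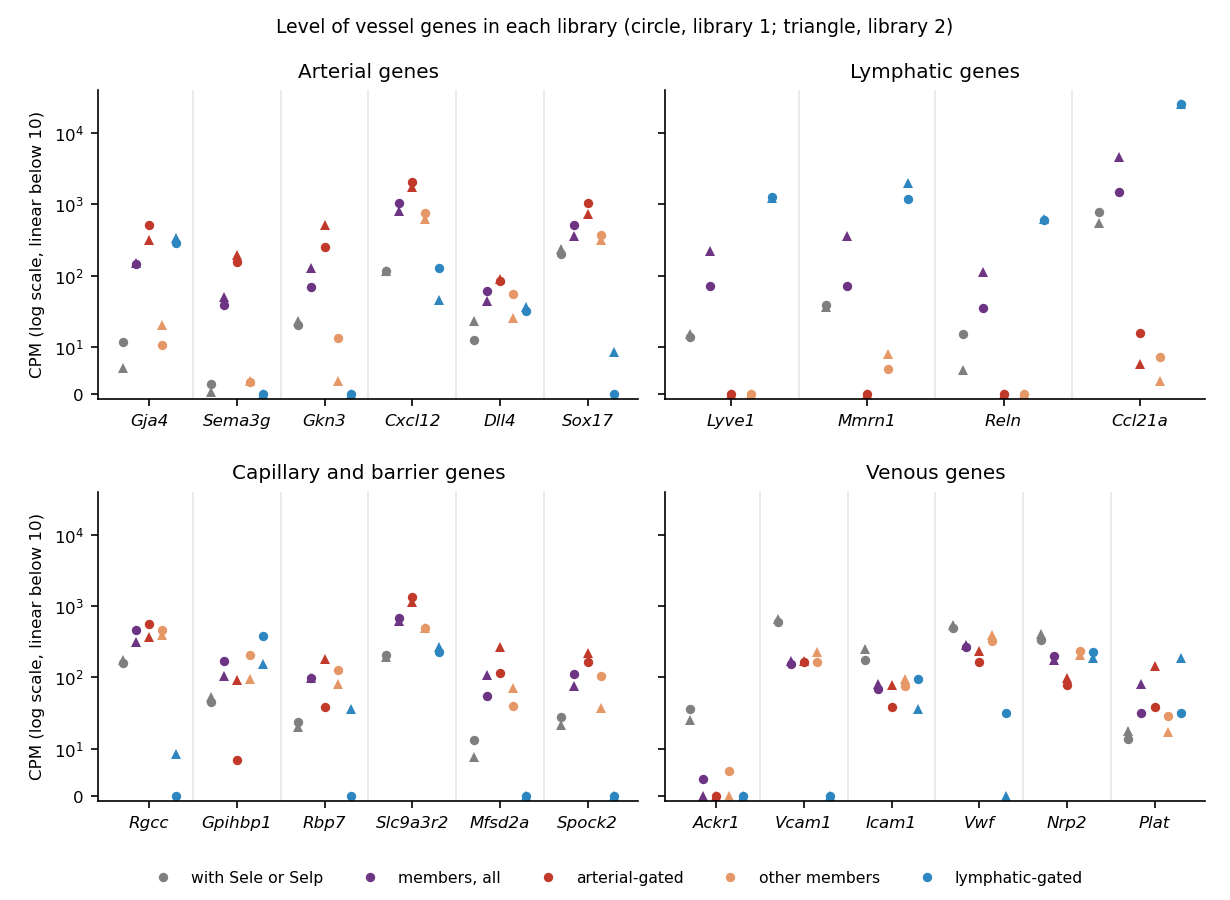
Level of 22 vessel genes in CPM (logarithmic axis, linear below 10) in endothelial cells with Sele or Selp, in all members and in the 3 blocks of members, with circles for library 1 and triangles for library 2. Sema3g, Gkn3, Cxcl12, Dll4 and Sox17 are highest in arterial-gated members, the lymphatic genes are at or near 0 in arterial-gated and other members, and Vcam1, Icam1 and Ackr1 are highest in cells with Sele or Selp. Gja4, Sema3g, Lyve1, Mmrn1 and Ccl21a are gate genes, so the gates set their pattern over the blocks in part by construction.

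What else set members apart from endothelial cells with *Sele* or *Selp* was asked by summing UMIs per library and group and testing with edgeR, without the genes of the rule. Of 11696 genes tested, 117 were higher in members (1.0% of genes tested) and 99 were lower (0.846%), at an adjusted p under 0.05. Members had higher levels of arterial and lymphatic genes and of some capillary and barrier genes, and lower levels of venous genes, the leukocyte adhesion genes *Vcam1* and *Icam1*, and some immediate early genes. The median log2 fold change over all genes was -0.01. With the library as a block, 321 genes were higher and 377 lower, and all 216 genes called without the block were among them. Thinning all cells to 2000 UMIs before gating, which also moves cells between the groups, left 26 higher and 25 lower.

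Arterial genes were higher as a group. Of 18 listed arterial genes 16 were tested, 13 were higher (14 with the block, which added *Unc5b*) and none was lower, with a median log2 fold change of 1.83. *Gja4* (chr4:127311421-127314039, minus strand, mm10) stood at 146 and 149 CPM in members and at 11.5 and 5.62 CPM in *Sele* or *Selp* cells, a log2 fold change of 3.99 (SE 0.30, adjusted p = 7.26e-05). The groups were far apart in both libraries. Of the 171 *Gja4* UMIs of members, 114 lay in arterial-gated and 46 in lymphatic-gated cells. Of the 111 member UMIs of *Fbln5*, also among the higher arterial genes, 52 lay in arterial-gated and 40 in lymphatic-gated cells. *Sema3g*, a secreted semaphorin of arteries, rose from 2.20 and 0.511 to 38.8 and 50.3 CPM (4.87, SE 0.51, adjusted p = 0.000819), with 52 UMIs in members and 5 in the *Sele* or *Selp* cells. The chemokine gene *Cxcl12* rose from 118 and 117 to 1041 and 799 CPM (2.86, SE 0.20, adjusted p = 5.99e-05). The growth factor binding gene *Igfbp3* (2.53), the arterial kinase gene *Bmx* (1.56) and the secreted gastrokine gene *Gkn3* (2.09) rose as well, but *Gkn3* was seen in fewer members (13 of 184) than *Sele* or *Selp* cells (36 of 383), and 54.7% of its member UMIs lay in 1 cell. Within libraries 1 and 2 the log2 fold change of *Sema3g* was 3.78 and 5.75. *Sox17*, a transcription factor of arterial fate, changed less, from 198 and 238 to 513 and 362 CPM (0.90, SE 0.20, adjusted p = 0.0427). *Efnb2*, the arterial ephrin, did not pass, at 73.8 and 71.5 against 52.7 and 74.5 CPM, and the groups overlapped.

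All 8 lymphatic genes were tested and 7 were higher, with a median log2 fold change of 2.58, but these values rested mainly on library 2 and on few cells. *Lyve1* stood at 72.0 and 224 CPM in members and 13.7 and 15.3 CPM in *Sele* or *Selp* cells (3.24, SE 0.41, adjusted p = 0.00217). *Mmrn1*, which encodes a multimerin of lymphatic endothelium, stood at 72.0 and 361 against 38.5 and 36.2 CPM (2.43, SE 0.49, adjusted p = 0.0246), and its log2 fold change was 0.77 in library 1 and 3.22 in library 2. The same contrast between libraries held for *Ccl21a*, at 0.83 and 2.99, and *Reln*, at 1.04 and 4.30. *Prox1* did not pass (0.85, SE 0.36, adjusted p = 0.374). Libraries 1 and 2 held 4 and 14 lymphatic-gated members and 16 each of lymphatic-gated *Sele* or *Selp* cells. *Mmrn1* is itself a gate gene, and 256 of its 261 member UMIs lay in the lymphatic-gated cells. With these cells left out of both groups it stood, by construction of the gate, at a log2 fold change of -0.99 (adjusted p = 0.692), and 63 genes were higher and 42 lower over all.

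Capillary and barrier genes were higher in part. Of 15 tested capillary genes, 4 were higher and none lower (6 higher with the block, which added *Esm1* and *Sgk1*), and the median log2 fold change was 0.92. *Rbp7*, a retinol binding protein of microvessels, rose from 23.6 and 20.4 to 99.7 and 97.4 CPM (2.05, SE 0.24, adjusted p = 0.00123). It was seen in 27 of 184 members and 35 of 383 *Sele* or *Selp* cells, and 56.1% of its member UMIs lay in 5 cells. The scaffold gene *Slc9a3r2* rose from 206 and 192 to 685 and 614 CPM (1.60, SE 0.18), *Gpihbp1* by 1.36 and *Rgcc* by 1.09 on the log2 scale. *Plvap* did not pass, at 1071 and 655 against 939.9 and 752 CPM. Of 14 tested barrier genes 4 were higher: the lysolipid transporter gene *Mfsd2a* (2.83, SE 0.36, adjusted p = 0.00208), the proteoglycan gene *Spock2* (1.82), *Cldn5* (0.93), and the transcription factor gene *Foxq1* (3.77). Of the 32 *Foxq1* UMIs in members 22 lay in 1 cell, its log2 fold change was 5.58 in library 1 and 1.23 in library 2, and other kept cells outside both endothelial groups held it at 31.1 and 32.8 CPM, against 49.8 and 8.12 CPM in members. For *Mfsd2a* the libraries gave 1.91 and 3.57. The 37 arterial-gated cells held 56 of the 96 *Mfsd2a* UMIs of members and 352 of the 749 *Slc9a3r2* UMIs. *Slc9a3r2* and *Cldn5* were also called higher in arterial-gated than in ungated members. *Slc7a5*, the large amino acid transporter, joined the higher barrier genes with the block. The drug and nutrient transporters *Abcb1a*, *Abcg2* and *Slc2a1* did not pass.

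Genes outside the lists were among the largest rises. *Glul*, which encodes glutamine synthetase, rose from 70.3 and 69.4 to 639 and 417 CPM (2.81, SE 0.23, adjusted p = 0.000116), and was present in 88 members. The extracellular matrix gene *Fbln2* rose from 8.24 and 2.55 to 73.8 and 65.0 CPM (3.57, SE 0.40, adjusted p = 0.00119). *Prom1*, encoding prominin 1, rose by 2.75 on the log2 scale and the monoacylglycerol lipase gene *Mgll* by 2.47. *Mgll* was at 1.60 in library 1 and 3.03 in library 2, with 50 of its 103 member UMIs in the 18 lymphatic-gated cells, and *Fbln2* was at 2.98 and 4.39. The taurine transporter gene *Slc6a6* rose from 119 and 130 to 683 and 565 CPM (2.22, SE 0.18). Each of these was higher in both libraries. The 37 arterial-gated cells held 389 of the 603 *Glul* UMIs of members and 408 of the 718 *Slc6a6* UMIs.

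**Figure D3:**
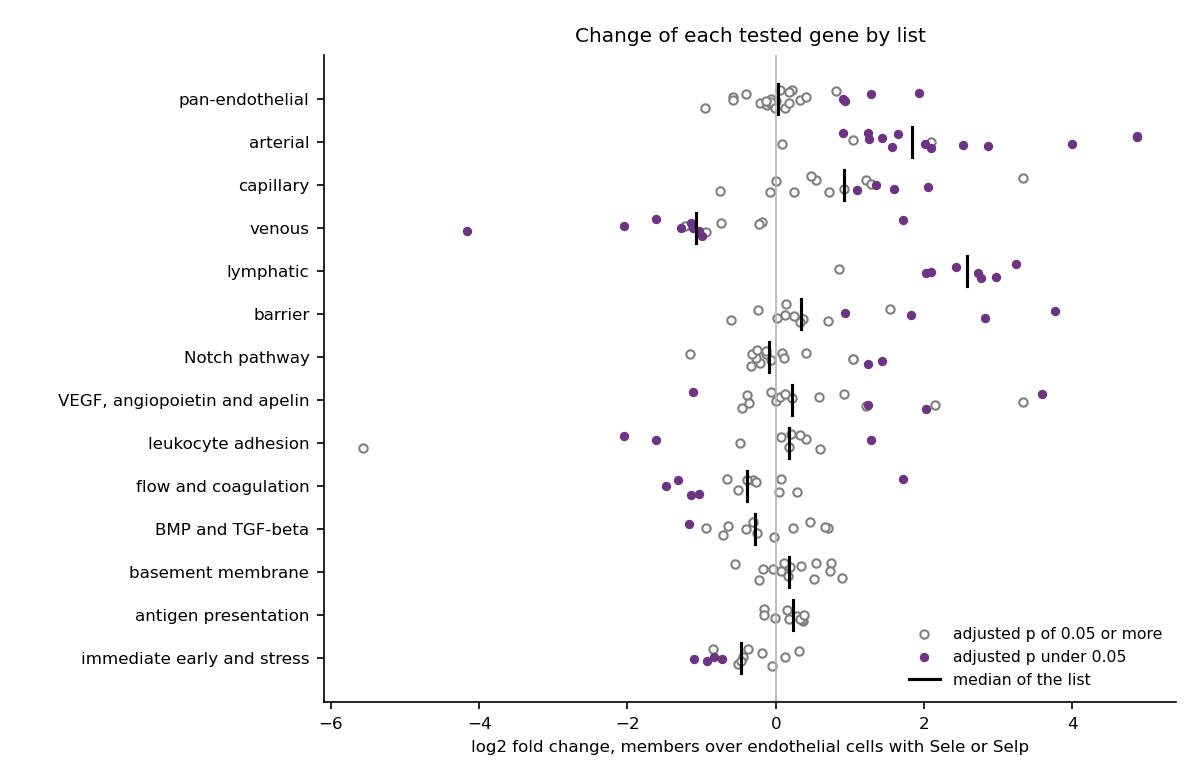
Log2 fold change of each tested gene of 14 lists, members over endothelial cells with Sele or Selp; filled points have an adjusted p under 0.05 (edgeR), open points do not, the bar is the median of the list, and points are spread vertically only for legibility. Arterial and lymphatic genes lie mostly to the right (medians 1.83 and 2.58) and venous genes to the left (median -1.07), whereas Notch pathway genes centre near 0.

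Most venous genes fell. All 14 listed venous genes were tested, 8 were lower (10 with the block, which added *Lrg1* and *Nr2f2*) and 1 higher, with a median log2 fold change of -1.07. *Vcam1* and *Icam1*, which encode the adhesion molecules that bind leukocyte integrins, are venous and inflammatory genes that act after the selectins. *Vcam1* (chr3:116109949-116129688, minus strand, mm10) stood at 153 and 172 CPM in members against 592 and 660.0 CPM in *Sele* or *Selp* cells (-2.05, SE 0.18, adjusted p = 0.000155), and *Icam1* at 68.3 and 79.6 against 175 and 249 CPM (-1.62, SE 0.22, adjusted p = 0.00309). Neither gene overlapped between the groups, though with 2 libraries against 2 that alone cannot go below an exact permutation p of 0.333 (two-sided). After thinning to 2000 UMIs, with cells grouped as at full depth, *Vcam1* was seen in 18.3% of members and 50.5% of *Sele* or *Selp* cells, and *Icam1* in 9.71% and 30.2%. *Ackr1*, the chemokine receptor of venules, was nearly absent from members, with 2 UMIs in all, against 114 UMIs in *Sele* or *Selp* cells (-4.16, SE 0.69, adjusted p = 0.0105). *Vwf* fell by 1.03, the semaphorin and VEGF co-receptor gene *Nrp2* by 1.11 and the prostaglandin transporter gene *Slco2a1* by 1.14 on the log2 scale. The venous gene that rose was *Plat*, the tissue plasminogen activator gene, from 13.7 and 17.9 to 31.4 and 79.6 CPM (1.72, SE 0.37, adjusted p = 0.0363).

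The largest falls included *Ptgs2* and *Cxcl1*, which inflammatory signals are known to induce. *Ptgs2*, the inducible cyclooxygenase gene, stood at 57.2 and 107 CPM in members and 361 and 481 CPM in *Sele* or *Selp* cells (-2.45, SE 0.25, adjusted p = 0.000731). The small GTPase gene *Rnd1* stood at 36.9 and 95.8 against 299 and 379 CPM (-2.44, SE 0.30), and the neutrophil chemokine gene *Cxcl1* at 25.8 and 39.0 against 105 and 156 CPM (-2.10, SE 0.27, adjusted p = 0.00235). The transcription factor gene *Nfatc2* (-2.55), the lysophospholipase gene *Enpp2* (-2.16), the parathyroid hormone-related gene *Pthlh* (-1.88), the GTPase gene *Gem* (-1.85), the apolipoprotein gene *Apoa1* (-1.65) and *Bst1* (-1.63) were lower in both libraries. Singled out after their values were seen, the NF-κB inhibitor genes *Nfkbia* (766 and 669 against 1605 and 1499 CPM, -1.22, SE 0.17, adjusted p = 0.00436) and *Tnfaip3* (-2.37, SE 0.39, adjusted p = 0.0101) fell too. Of 13 immediate early and stress genes, 4 were lower (*Atf3*, *Ier3*, *Nr4a1* and *Zfp36*, between -1.10 and -0.73), and 9 were lower with the block, which added *Egr1*, *Fos*, *Fosb*, *Jun* and *Junb*.

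**Figure D4:**
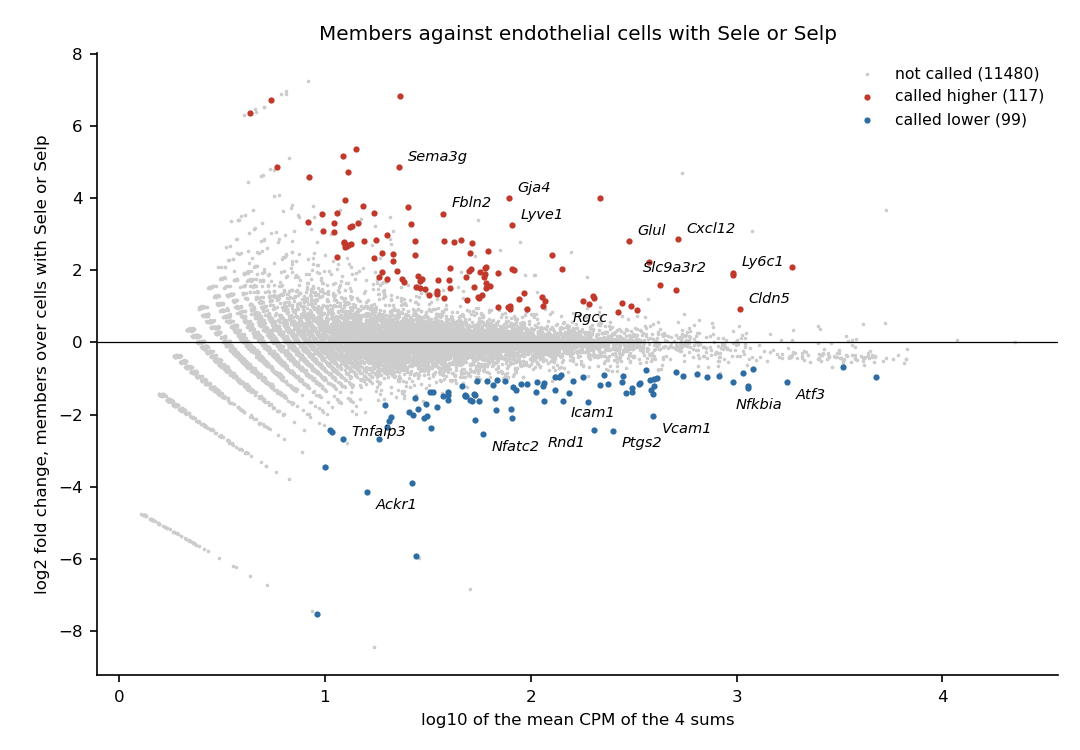
Log2 fold change of the 11696 tested genes, members over endothelial cells with Sele or Selp, against the log10 of their mean CPM over the 4 sums; red marks the 117 genes called higher, blue the 99 called lower, and grey the rest. Gja4, Glul and Cxcl12 stand out above, and Vcam1, Ptgs2 and Rnd1 below, at levels well above the sparse genes on the left.

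The stretches before the start sites of some of these genes are shown because *Sele*, *Icam1* and *Nfkbia* are known targets of NF-κB, a family of transcription factors switched on by inflammatory signals. The letters are the 250 bases before the RefSeq start site (GRCm38.p6), in the direction of transcription, with capitals for matches to GGNNNTTCC on either strand (GGAANNNCC on the other), a loose form of the NF-κB site that these letters alone do not prove to be bound. *Sele* lies on chr1:164047984-164048233 (plus strand), *Icam1* on chr9:21015690-21015939 (plus strand) and *Nfkbia* on chr12:55492648-55492897 (minus strand).
Sele: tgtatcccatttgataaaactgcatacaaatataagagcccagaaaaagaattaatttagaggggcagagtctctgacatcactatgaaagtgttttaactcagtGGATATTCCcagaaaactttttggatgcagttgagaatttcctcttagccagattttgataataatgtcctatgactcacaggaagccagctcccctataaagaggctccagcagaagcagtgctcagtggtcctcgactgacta
Icam1: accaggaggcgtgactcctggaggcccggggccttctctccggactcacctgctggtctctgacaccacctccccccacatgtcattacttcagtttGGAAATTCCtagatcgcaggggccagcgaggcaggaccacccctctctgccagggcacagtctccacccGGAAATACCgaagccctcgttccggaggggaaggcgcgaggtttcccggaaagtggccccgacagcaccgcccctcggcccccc
Nfkbia: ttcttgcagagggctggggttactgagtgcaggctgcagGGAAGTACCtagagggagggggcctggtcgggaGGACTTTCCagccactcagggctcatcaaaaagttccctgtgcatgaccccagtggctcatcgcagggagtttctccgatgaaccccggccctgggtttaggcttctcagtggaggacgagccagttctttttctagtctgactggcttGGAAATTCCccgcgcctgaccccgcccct
*Sele* held 1 match, 145 bases before the start, *Icam1* held 2 and *Nfkbia* held 3. Over all 27025 genes with such a window 17.6% held a match, as did 21.6% of the tested genes, 24.7% of the genes called lower (19 of 77 with a window) and 19.3% of those called higher (17 of 88). These shares were close to each other and were not tested.

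The Notch ligand genes *Dll4* and *Jag2* rose and no other Notch pathway gene passed. Notch receptors on a cell are cut when bound by Delta or Jagged ligands of a neighbour and then switch on Hes and Hey genes, and *Dll4* is the ligand of arteries and sprouting tips. Of 16 tested Notch pathway genes 2 were higher and none lower, with a median log2 fold change of -0.10. *Dll4* stood at 60.9 and 43.9 CPM in members against 12.6 and 23.0 CPM in *Sele* or *Selp* cells (1.43, SE 0.33, adjusted p = 0.0465) and was seen in 35 of 184 members, and its log2 fold change was 2.11 in library 1 and 0.84 in library 2. *Jag2* stood at 60.9 and 99.1 against 28.0 and 35.2 CPM (1.24, SE 0.26, adjusted p = 0.0335). *Notch1*, at 96.0 and 127 against 86.8 and 108 CPM, did not pass (0.09, SE 0.20), nor did *Hes1* (-0.14, SE 0.17). *Notch4*, the receptor most confined to endothelium, was at 1.04 (SE 0.37) with an adjusted p of 0.256, and of 0.0465 with the block.

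VEGF genes were mixed. Of 17 tested genes of VEGF, angiopoietin and apelin signalling, 3 rose and 1 fell. The ligand gene *Vegfc*, a lymphatic growth factor, rose from 18.7 and 24.0 to 51.7 and 56.8 CPM (1.24), its receptor gene *Flt4* by 2.02 and the placental growth factor gene *Pgf* by 3.59 (37 UMIs in members, 9 in *Sele* or *Selp* cells), and *Nrp2* fell. The receptor genes *Kdr* (0.01, SE 0.19), *Flt1* (0.22, SE 0.16) and *Tek* (-0.06, SE 0.23) did not pass. Of 13 genes of flow and coagulation, *Vwf*, the factor VIII gene F8 (-1.48), the protein C receptor gene *Procr* (-1.32) and *Ptgs1* (-1.14) fell and *Plat* rose, and 2 more fell with the block. *Bmp4* alone of 12 BMP and TGF-β genes changed, falling by 1.18, and with the block 2 rose and 5 fell. None of 14 basement membrane genes (4 higher with the block, *Col4a1* and *Col4a2* among them) and none of 10 antigen presentation genes passed. Of 24 genes shared by all endothelium, 4 were higher (*Cldn5*, *Ly6c1*, *Podxl* and *Sox17*) and none lower, with a median log2 fold change of 0.03, and with the block 5 were higher and 3 lower.

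Genes of other cell types were seen in both groups, and of those listed only *S100a8* and *Dcn* were called without the block, both lower. Neutrophil genes summed to 1.85 and 3.25 CPM in members and 194 and 34.7 CPM in *Sele* or *Selp* cells, and *S100a8* was called lower (-5.93, SE 1.16, adjusted p = 0.0223), with 94.6% of its UMIs in the *Sele* or *Selp* cells lying in 5 cells. In members, 5 cells held 83.2% of the fibroblast, 74.8% of the myeloid and 76.1% of the epithelial UMIs of these lists, and the median cell had 0. Fibroblast genes summed to 303 and 515 against 617 and 494 CPM, and *Dcn*, a matrix proteoglycan, fell by 1.15. Epithelial genes summed to 266 and 330 against 138 and 140 CPM, and myeloid genes to 314 and 240 against 113 and 174 CPM. Of the lymphocyte genes, *Cd3d* and *Cd3e* were at 0 in members, and *Cd79a* had 12 UMIs, all in 1 arterial-gated cell, against 1 UMI in *Sele* or *Selp* cells, and was higher only with the block. At least 2 genes of another cell type were found in 30 members (median 7060 UMIs) and 113 *Sele* or *Selp* cells (median 11932 UMIs). Without these cells, 126 genes were higher and 100 lower, and 159 of the 216 calls were kept. The part of other cells' RNA in single genes was not tested.

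The arterial-gated and lymphatic-gated cells were also taken out of both groups, which left 129 and 322 cells, a step added after the data had been seen. Of the 216 genes called before, 194 were still tested and 189 of these kept their sign, while fewer passed the test. Then 12 genes were higher and 9 lower, and 19 of these 21 had been called before. The lower genes were *Vcam1* (-1.86, adjusted p = 0.00538), *Icam1* (-1.46), *Ptgs2* (-1.71), *Tnfaip3* (-2.99), *Nfkbia* (-1.19), *Enpp2*, *Gem*, the growth factor gene *Hbegf* and *Rgs16*, so that *Vcam1*, *Icam1* and *Ptgs2* were lower in ungated members too. The higher genes were *Cxcl12* (2.39, adjusted p = 0.000752), *Glul* (1.95), *Rbp7* (2.26), *Prom1* (2.61), *Ly6c1*, *Rgcc*, *Slc9a3r2*, *Slc6a6*, *Slc7a5*, and the epithelial genes *Aqp5*, *Fxyd3* and *Wfdc2*. All 76 *Aqp5* UMIs of the members lay in 5 cells. In ungated members, 5 cells held 86.8% of the *Fxyd3*, 83.2% of the *Wfdc2* and 63.6% of the *Rbp7* UMIs. *Gkn3* went from a log2 fold change of 2.09 to -1.65 (adjusted p = 0.424).

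Within the members, the arterial-gated cells were compared with the 129 ungated ones, without the genes of either gate. Of 8265 genes tested, 30 were higher in arterial-gated cells (0.363%) and 27 lower (0.327%), and with the library as a block 22 were higher and 14 lower, and 30 of the 57 genes were among these. The sums held 284015 UMIs from 37 cells and 730435 UMIs from 129 cells. Arterial-gated cells, which need UMIs of 2 gate genes, had a median of 5797 UMIs against 4334 UMIs. With a gate of 1 arterial gene, which took 92 cells, no gene was called and 420 had an unadjusted p under 0.05 (edgeR), and DESeq2, run only under the gate of 2 genes, called 39 there.

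Other arterial genes rose with those of the gate. Of 11 tested arterial genes outside the gate, 6 were higher (4 with the block) and none lower, with a median log2 fold change of 1.58. *Gkn3* stood at 255 and 505 CPM in arterial-gated cells and 13.1 and 2.86 CPM in ungated ones (5.35, SE 0.51, adjusted p = 0.000218), with 91.9% of its arterial UMIs in 5 of the 10 cells that had any. Of its 111 arterial UMIs 64 lay in 1 cell, which also held 111 of the 117 *Dcn* UMIs of arterial-gated cells. *Fbln5*, an elastic fibre gene, stood at 139 and 220.2 against 18.4 and 34.3 CPM (2.66, SE 0.40, adjusted p = 0.00619), *Cxcl12* at 2083 and 1768 against 761 and 612 CPM (1.38, SE 0.22) and *Sox17* at 1042 and 725 against 375 and 315 CPM (1.25, SE 0.26, adjusted p = 0.0479). Both libraries of arterial-gated cells lay above both of the others for each, an order whose exact permutation p cannot go below 0.333 (two-sided). *Alpl*, an alkaline phosphatase gene, had 13 UMIs against 0, which is at least 11.1-fold higher against a floor of 3 UMIs over the group, and *Vegfc* rose by 2.06. With the block, *Alpl* and *Vegfc* had adjusted p of 0.163 and 0.127.

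Beyond the arterial list, the vasoconstrictor gene *Edn1* stood at 517 and 453 CPM against 55.1 and 100.1 CPM (2.54, SE 0.32, adjusted p = 0.00247), and was present in 23 of 37 arterial-gated and 27 of 129 ungated cells. *Fbln2* stood at 278 and 130 against 10.5 and 2.86 CPM (4.67, SE 0.57, adjusted p = 0.00223), and the tyrosine phosphatase gene *Ptprr* at 208 and 136 against 10.5 and 5.72 CPM (4.19, SE 0.49). *Tgfb2* rose by 2.40, and the laminin genes parted, with *Lamb2* higher (2.00, SE 0.33) and *Lamb1* lower (-2.37, SE 0.43). With the block, *Tgfb2*, *Lamb2* and *Lamb1* had adjusted p of 0.089, 0.0817 and 0.12. The sialyltransferase gene *St8sia6*, *Gm35167* and *Egfl8* (adjusted p between 0.00985 and 0.0479, and between 0.0885 and 0.18 with the block) were also among the 10 largest rises. *Lyz2*, a lysozyme gene of myeloid cells, was also called higher, at 455 and 654 against 18.4 and 22.9 CPM, with 98.8% of its arterial UMIs in 5 cells. *Ptprc*, *Csf1r* and *Cd68*, also from the myeloid list, were too sparse to test.

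**Figure D5:**
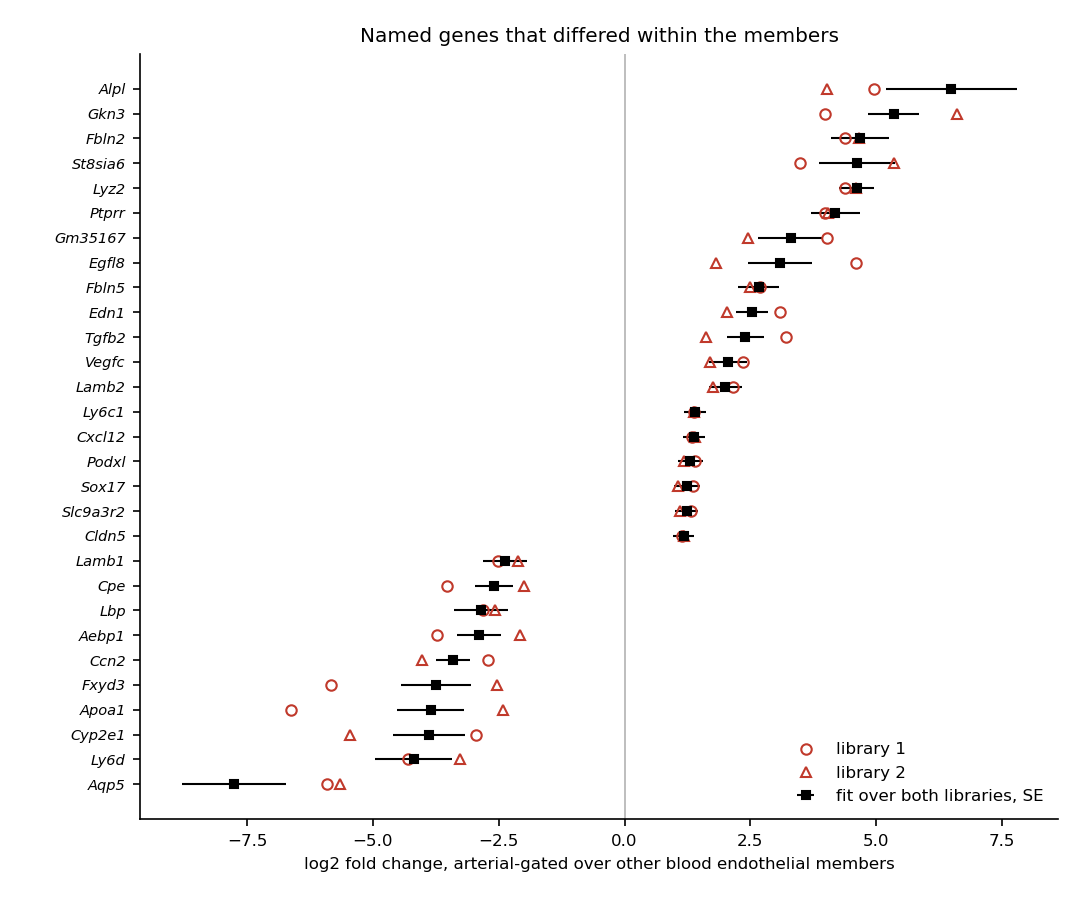
Log2 fold change, arterial-gated over ungated blood endothelial members, for the named genes that differed; black squares with bars are the fit over both libraries and its SE, and red circles and triangles the values within libraries 1 and 2. Every gene has the same sign in both libraries; for Alpl and Aqp5 1 group had no UMI, so their fitted positions depend on the prior count.

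Of 13 tested venous genes 2, *Lbp* among them, were lower in arterial-gated cells (1 with the block) and none higher, with a median log2 fold change of -0.76. The matrix-associated growth gene *Ccn2* stood at 123 and 84.2 against 764 and 1284 CPM (-3.41, SE 0.34, adjusted p = 0.000276), and the lipopolysaccharide binding protein gene *Lbp*, from the venous list, at 15.4 and 13.0 against 113 and 80.1 CPM (-2.85, SE 0.54). *Apoe*, the lipid carrier gene, stood at 1065 and 816 against 5102 and 4674 CPM (-2.48, SE 0.21, adjusted p = 8.8e-05), and was singled out after its values were seen. The prohormone processing gene *Cpe* (-2.60), *Apoa1* (-3.85) and the matrix gene *Aebp1* (-2.90) fell. Of the 108 *Apoa1* UMIs in ungated cells, 67.6% lay in 5 cells. With the block, *Lbp*, *Apoa1* and *Aebp1* had adjusted p of 0.119, 0.127 and 0.0591. *Nr2f2* and *Nrp2* did not pass (adjusted p = 0.147 and 0.0633). No Notch pathway gene passed: *Dll4* stood at 84.9 and 90.7 against 55.1 and 25.7 CPM, *Jag1* at 61.7 and 51.8 against 18.4 and 14.3 CPM, and *Notch1* at 108 and 104 against 94.5 and 117 CPM.

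Several other falls rested on few cells. *Aqp5*, a water channel of secretory cells, had 0 UMIs in arterial-gated cells and 76 in ungated ones, at least 9.85-fold lower against the floor, and all 76 lay in 5 cells. *Ly6d* stood at 30.9 and 13.0 against 599 and 132 CPM (-4.19, SE 0.76, adjusted p = 0.0221), with 93.8% of its ungated UMIs in 5 cells, and *Fxyd3* (-3.74) had 86.8% of them in 5 cells. The cytochrome gene *Cyp2e1* (-3.89), by contrast, was spread over 21 ungated cells. With the block, *Aqp5*, *Fxyd3* and *Cyp2e1* had adjusted p of 0.0602, 0.149 and 0.122. Listed epithelial genes summed to 362 and 277 CPM in ungated cells and to 30.9 and 635 CPM in arterial-gated ones, and fibroblast genes to 428 and 163 CPM and to 0 and 1677 CPM. Their part in these values was not tested. Leaving out cells with at least 2 genes of another cell type turned *Ly6d* to a log2 fold change of 0.38 (adjusted p = 0.947), and the counts became 69 higher and 67 lower, with 50 of the 57 calls kept.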

How the data were processed

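Frozen and thawed VNO suspensions gave 2 droplet libraries (10x 3′ chemistry). Per the labels and the study's methods, UMIs were assigned to genes by Cell Ranger 4 with mm10, and both libraries were merged with aggr; whether aggr evened out their depth is not given. The authors deposited raw counts of 32285 genes in 24084 barcodes, not normalized, for barcodes already called as cells and before the study's limits on genes and mitochondrial UMIs, and text files (other) of gene and barcode names. Libraries held 108005626 and 95442231 UMIs. A barcode's suffix gave its library.

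Levels are CPM of UMIs summed per library and group, and are not compared between genes. Tests used edgeR 4.0.16 in R 4.3.3 (TMM, glmQLFit, glmQLFTest) on these sums, over genes with at least 10 UMIs, with Benjamini-Hochberg adjustment over all tested genes and a threshold of 0.05. SEs come from the fold change and F. The study tested single cells, which are not replicates, so its test was not used. Intervals of shares are exact binomial. Scrublet in scanpy 1.11.5 called 1.19% and 2.39% of the kept cells of libraries 1 and 2 doublets, and these stayed in. Members, gates and lists were chosen with earlier results of these data known. Named genes are those of the lists, the 10 largest changes per direction past the threshold with the same sign in both libraries and at least 50 CPM in the higher group, and the 15 highest ratios over other cells; genes outside this rule were chosen after their values were seen. A number shared by sums of different groups means 1 capture, which pairs them, and their deviations correlated across genes at 0.101 (first comparison) and 0.0144 (second). Sequences are from RefSeq. Some genes that the rule takes are not reported here. Alternatives were DESeq2 1.42.0, RLE scaling, other count filters, the replicate block, each library alone, and other limits on cells.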

Additional observations from a re-analysis of the deposited data

How the results depend on the processing

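The number of members moved to 104 with at least 2 UMIs of *Pecam1* and of *Cdh5*, and was 141 to 248 under the other limits on cells. For members against endothelial cells with *Sele* or *Selp* (117 higher, 99 lower), the counts were 74 and 68 with DESeq2, 286 and 272 without a filter on low counts, 321 and 377 with the replicate block, 26 and 25 with cells thinned and gated at equal UMIs, 197 and 134 with at least 2 UMIs of *Sele* plus *Selp*, 63 and 42 without lymphatic-gated cells, and 12 and 9 without arterial-gated and lymphatic-gated cells; the last pair of settings was added after seeing the data. RLE scaling, filterByExpr, the 10% mitochondrial limit, and leaving out doublets, cells with C1q or cells with genes of another cell type each kept both counts within 1.5 times. For arterial-gated against ungated members (30 higher, 27 lower), the counts were 22 and 17 with DESeq2, 115 and 128 without a filter, 22 and 14 with the replicate block, 14 and 12 at the 10% mitochondrial limit, 69 and 67 without cells with genes of another cell type, 7 and 13 with thinned cells, and 0 and 0 with a gate of at least 1 arterial gene. Under thinning the median log2 fold change over all genes of that comparison was -0.49.

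Reversed signs were few. In the first comparison *Gkn3* went to -1.65 without arterial-gated and lymphatic-gated cells, and *Mmrn1* to -0.99 without lymphatic-gated cells and -0.51 without both. In the second, *Aqp5* went to 3.54, *Fxyd3* to 0.23 and *Ly6d* to 0.30 with a gate of at least 1 arterial gene, and *Ly6d* to 0.50 at the 10% mitochondrial limit and 0.38 without cells with genes of another cell type; the cause was not tested. With 1 library left each group is 1 sum, which has no residual degrees of freedom, so those values are ratios with no test. Depth limits what single members show, since cells with few UMIs can lack *Sele* and *Selp* by sampling.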
